A study of Mus musculus with 25 samples.

Results

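The naive pluripotency transcription factors described here are Pou5f1, Sox2, Nanog, Klf2, Klf4, Klf5, Zfp42, Esrrb, Tfcp2l1 and Dppa3. They were chosen by name, and all 10 had a row in both RNA tables, among 35731 genes of mouse embryonic stem cells (mESCs) and 24062 genes of embryos. The mESCs were of the v6.5 line and carried either the wild-type (WT) genotype or a knockout (KO) of Dot1L, the histone methyltransferase of H3 lysine 79 (H3K79). Their RNA was measured in 3 WT and 2 KO libraries, and peaks of H3K79me2 and H3K79me3 were listed for 2 WT and 2 KO libraries per mark. The embryos were WT 8-cell embryos of the cross B6D2F1 x Cast/EiJ, collected 56 hours after fertilization in pools of 30 to 35, with 2 pools given the solvent DMSO and 2 given SGC0946, an inhibitor of Dot1L. Neither the deleted part of Dot1L, the number of KO clones nor the dose and start of the inhibitor is given in the sources used here. Nothing in the labels says that the mESC replicates came from separate cultures, so their p-values measure only the spread between these libraries, which may be technical.

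Naive pluripotency is the state of the epiblast before implantation, and mESCs hold it in culture. Oct4 (encoded by Pou5f1) and Sox2 bind DNA side by side and, with Nanog, form the core of the network. Klf2, Klf4, Klf5, Esrrb and Tfcp2l1 are activated around that core, in part by the LIF and Wnt pathways, and can replace one another in part. Zfp42 (Rex1) and Dppa3 (Stella) are widely used marks of the naive state, and Dppa3 is also a maternal factor of the egg. H3K79 methylation lies over the bodies of transcribed genes, mostly in their first part.

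Promoter sequences of these genes are shown first, with the letters that factors of the network are known to recognise. The RefSeq tables of build GRCm38.p6 held promoter windows of 300 bases, from 250 before to 50 after an annotated start, for 8 of the 10 genes, with 11 windows in all. Klf5 and Dppa3 had none in them. Each window below is written from 5′ to 3′ along the gene's strand. Capitals mark matches, on either strand, to the motifs searched: the octamer ATGCAAAT bound by Oct4, the SOX core CATTGT, the joined SOX and OCT element (the SOX core, any base, then the octamer without its last base, so that each match holds a SOX core), CCACACCC for Klf factors, the GC box GGGGCGGGG, TCAAGGTCA for Esrrb, a pair of CCAG parted by any 6 bases for Tfcp2l1 and TTCCNGGAA for Stat factors. Nanog (chr6:122707239-122707538, plus strand) is shown because its RNA was the lowest in KO relative to WT. Pou5f1 (chr17:35505782-35506081, plus strand) is shown because H3K79me2 peaks reached over its start. Zfp42 (chr8:43306960-43307259, minus strand) holds motifs for 2 factor families, and Tfcp2l1 (chr1:118627695-118627994, plus strand) is the gene whose RNA was higher in KO.
Nanog: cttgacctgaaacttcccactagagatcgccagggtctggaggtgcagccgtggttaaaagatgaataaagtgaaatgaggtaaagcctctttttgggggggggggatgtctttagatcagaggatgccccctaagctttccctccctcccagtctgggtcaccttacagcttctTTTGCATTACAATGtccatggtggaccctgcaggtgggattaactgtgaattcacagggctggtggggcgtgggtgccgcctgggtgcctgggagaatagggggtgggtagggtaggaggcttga
Pou5f1: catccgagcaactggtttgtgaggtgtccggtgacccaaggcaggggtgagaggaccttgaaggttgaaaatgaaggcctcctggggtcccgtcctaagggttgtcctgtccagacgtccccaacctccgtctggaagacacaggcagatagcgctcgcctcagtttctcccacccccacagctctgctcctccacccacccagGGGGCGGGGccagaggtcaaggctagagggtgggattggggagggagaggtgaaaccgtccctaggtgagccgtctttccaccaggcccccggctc
Zfp42: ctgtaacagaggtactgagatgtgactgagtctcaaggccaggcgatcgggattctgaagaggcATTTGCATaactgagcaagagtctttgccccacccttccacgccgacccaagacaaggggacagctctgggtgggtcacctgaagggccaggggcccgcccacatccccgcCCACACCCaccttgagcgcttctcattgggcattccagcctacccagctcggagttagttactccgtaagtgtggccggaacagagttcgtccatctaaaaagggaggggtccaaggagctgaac
Tfcp2l1: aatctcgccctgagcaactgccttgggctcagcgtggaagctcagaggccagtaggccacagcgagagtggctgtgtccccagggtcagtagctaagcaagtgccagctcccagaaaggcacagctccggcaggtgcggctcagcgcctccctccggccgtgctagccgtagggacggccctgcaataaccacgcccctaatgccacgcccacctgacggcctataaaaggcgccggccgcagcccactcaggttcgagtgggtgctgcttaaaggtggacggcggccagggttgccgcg

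The joined SOX and OCT element occurred in 2 of 32851 promoter windows of all genes (0.00609%), and both were overlapping windows of Nanog. In the window shown it read TTTGCATTACAATG and lay from 75 to 62 bases before the start. Zfp42 held an octamer, as ATTTGCAT, 186 to 179 bases before its start, which 1.74% of all windows hold, and CCACACCC 75 to 68 bases before it, held by 3.56%. The GC box, held by 11.4% of all windows, occurred in windows of Pou5f1, Sox2, Klf2 and Klf4, in Pou5f1 46 to 38 bases before the start. The G and C content of these windows ran from 62.7 (Pou5f1) to 74.3% (Klf4), against a median of 52.7% over all windows. The SOX core, held by 12.6%, also occurred in 1 window of Esrrb and in the downstream window of Pou5f1. No window of these genes held the letters searched for Esrrb, Tfcp2l1 or Stat factors, which 0.423%, 3.44% and 1.15% of all windows hold. The Tfcp2l1 window held none of the motifs. A match is a description of letters and not a binding site.

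The libraries were checked before the genes were compared. Levels are given in CPM, which are counts relative to the library total on a fixed scale. Unless raw totals are named, that total was multiplied by the library's scaling factor from edgeR's TMM method. Dot1l RNA was 104.3, 96.9 and 99.2 CPM in the WT mESCs and 81.4 and 71.5 CPM in the KO mESCs. Its groups did not overlap, but a gene's total count says nothing of which part of the gene was deleted. No KO peak list had a peak over any of the 10 genes, and KO lists had one over 0.108% of 18544 genes for H3K79me2 and 0.976% for H3K79me3. The mESC libraries summed to 26860527 to 33755064 counts and the embryo libraries to 24950199 to 32479590. The biological coefficient of variation was 0.0467 in mESCs and 0.442 in embryos, so the embryo comparison was far less precise. Genes of chromosome X were lower in KO mESCs, with a median log2 fold change of −0.65 over 596 genes, against 0.01 over 15286 autosomal genes. All 10 naive factors are autosomal, and the part of this difference in their values was not tested.

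In KO mESCs, 7 of the 10 genes differed from WT at an adjusted p under 0.05 in edgeR's quasi-likelihood test with Benjamini-Hochberg adjustment over all genes. Nanog, Klf5, Zfp42, Klf2, Dppa3 and Pou5f1 fell, Tfcp2l1 rose, and Sox2, Klf4 and Esrrb did not pass the test. Of all 19532 genes tested, 43.9% were called, 21.6% as lower and 22.3% as higher. The 6 lower calls of 10 are to be read against 21.6% and the total of 7 against 43.9%. The median log2 fold change (KO minus WT) of the 10 genes was −0.28, and that of all genes tested was 0.00078. Groups did not overlap for 9 of the 10 genes, 8 of them lower, against 62.5% of all genes in either direction and 30.7% lower. KO replicate 1 had the lowest TMM-scaled level of the 5 libraries for 8 of the 10 genes. These small differences depend on the scaling. With raw library totals in place of TMM (added once the values had been seen), the median gene lay 0.11 higher on the log2 scale, and 70.0% of calls were higher, against 50.8% with TMM and 63.5% with upper-quartile scaling. The 7 genes called with TMM kept their direction and their calls, with Pou5f1 at −0.10 (adjusted p = 0.0119). Klf4 was also called, as higher (0.13, adjusted p = 0.0177), and Sox2 and Esrrb turned to 0.05 and 0.03 without a call. Groups then did not overlap for 9 of the 10, 6 lower and 3 higher, against 64.1% of all genes and 20.4% lower.

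Among the core factors, Nanog changed most. Its level was 499, 496 and 493 CPM in WT and 231 and 256 CPM in KO. Both KO libraries were far below all WT libraries, which lay close together. Nanog was 2.03-fold lower in KO, −1.02 on the log2 scale (SE 0.05, adjusted p = 2.6e-09). Of all genes tested, 92.2% had a smaller change in size, so the fall was large among genes but not at the extreme. Pou5f1 measured 693, 683 and 679 CPM in WT and 586 and 598 CPM in KO. The groups were apart, and the change was small, with −0.21 on the log2 scale (SE 0.03, adjusted p = 3.2e-04). Sox2 measured 405, 408 and 394.3 CPM in WT and 380 and 394.2 CPM in KO. The highest KO library nearly met the lowest WT library, and the log2 fold change of −0.06 had a 95% interval from −0.14 to 0.03 and an adjusted p of 0.263. The core factors thus had 3 different outcomes, a large fall, a small fall and no call.

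**Figure D1:**
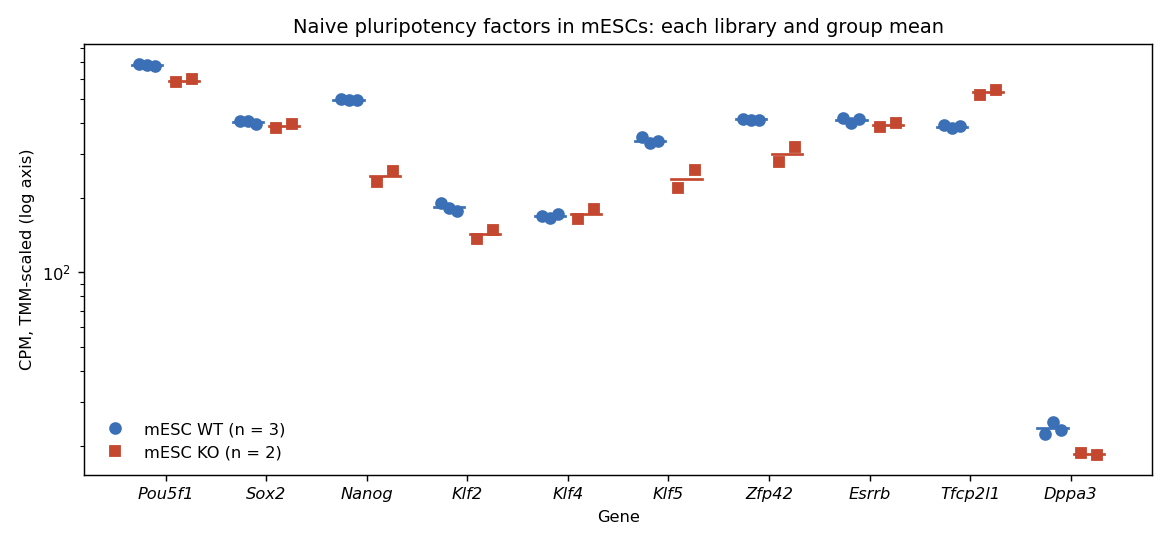
Level of each naive factor in the 3 WT (blue circles) and 2 Dot1L KO (red squares) mESC libraries, in TMM-scaled CPM on a log axis, with a line at each group mean. Nanog stands at 493 to 499 CPM in WT and 231 to 256 CPM in KO, Tfcp2l1 is the gene with both KO libraries above WT on this scaling, and Klf4 overlaps between genotypes.

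The Krüppel-like factors Klf2, Klf4 and Klf5 have overlapping roles in naive self-renewal, yet did not move together. Klf5 measured 350, 331 and 338 CPM in WT and 218 and 259 CPM in KO. Both KO libraries were lower, with the KO libraries further from each other than the WT libraries, and the log2 fold change was −0.51 (SE 0.06, adjusted p = 2.0e-05). Klf2 measured 191, 181 and 177 CPM in WT and 137 and 148 CPM in KO, again without overlap. Its log2 fold change was −0.36 (SE 0.05, adjusted p = 7.0e-05). Klf4, a direct target of LIF signalling, measured 169, 165 and 172 CPM in WT and 164 and 180 CPM in KO. With TMM scaling its KO libraries lay on both sides of the WT range, and the log2 fold change of 0.03 had a 95% interval from −0.08 to 0.13.

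Of Esrrb and Tfcp2l1, which are also activated around the core, Tfcp2l1 rose and Esrrb was not called. Tfcp2l1 measured 392, 380 and 387 CPM in WT and 520 and 542 CPM in KO. Both KO libraries were above all WT libraries, the only such case among the 10 genes with TMM scaling (on raw totals also Sox2 and Klf4), by 0.46 on the log2 scale (SE 0.04, adjusted p = 5.8e-07), or 1.37-fold. Esrrb measured 419, 401 and 416 CPM in WT and 383 and 399.6 CPM in KO. The groups barely missed each other with TMM scaling and overlapped on raw totals, and the log2 fold change of −0.07 had a 95% interval from −0.16 to 0.01 and an adjusted p of 0.149. Without KO replicate 2, Esrrb passed the test with a log2 fold change of −0.11 and an adjusted p of 0.0275.

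Both marker genes of the naive state fell. Zfp42, a zinc finger protein, measured 413, 412.1 and 412.4 CPM in WT and 279 and 320 CPM in KO. The WT libraries were nearly equal, and both KO libraries were lower and further from each other. The log2 fold change was −0.46 (SE 0.05, adjusted p = 1.1e-05). Dppa3, which protects DNA methylation in the early embryo, was low in mESCs, at 22.4, 25.1 and 23.3 CPM in WT and 18.8 and 18.4 CPM in KO. Both KO libraries were below all WT libraries, with a log2 fold change of −0.35 (SE 0.07, adjusted p = 0.0012). Reads of Zfp42 can be shared with its pseudogene Zfp42-ps1, which was given 57.7 to 82.9 estimated counts per mESC library.

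In 8-cell embryos, none of the 10 genes was called with SGC0946, and neither was any of 14351 genes tested (0%), with a smallest adjusted p of 0.203. All 10 estimates were below 0, though Klf2 was at 0.06 on raw totals, with a median log2 fold change (SGC0946 minus DMSO) of −0.27, against 0.01 for all genes tested. At an unadjusted p under 0.05 there were 5 of the 10, all lower, against 8.15% of all genes in either direction and 4.05% lower. Groups did not overlap for 7 of the 10, all lower, against 39.2% of all genes and 19.2% lower. On raw library totals 6 of the 10 did not overlap, again all lower, against 39.7% and 13.6% lower, and Dppa3 overlapped. SGC0946 pool 1 had the lowest TMM-scaled level of the 4 pools for 9 of the 10 genes. Other tools made calls on the same pools. DESeq2 called 126 genes and limma-voom 55, and both called Tfcp2l1, Esrrb and Pou5f1. In edgeR, leaving out SGC0946 pool 2 gave 365 calls, with Tfcp2l1, Esrrb, Pou5f1 and Dppa3 among them. Leaving out DMSO pool 2 gave 8 calls and SGC0946 pool 1 gave 18, each with Tfcp2l1 as the naive factor called, and leaving out DMSO pool 1 gave 4 calls with none of the 10.

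Tfcp2l1 had the lowest p of all genes tested in embryos. It measured 420 and 359 CPM with DMSO and 191 and 231 CPM with SGC0946. Both inhibitor pools were far below both DMSO pools, with a log2 fold change of −0.89 (SE 0.14, unadjusted p = 2.1e-05 and adjusted p = 0.203 in edgeR). Its adjusted p was 7.5e-06 in DESeq2 and 8.8e-04 in limma-voom. Esrrb measured 315 and 289 CPM with DMSO and 184 and 204 CPM with SGC0946. Again both inhibitor pools were below both DMSO pools, and the log2 fold change was −0.64 (SE 0.13, adjusted p = 0.203 in edgeR, 0.0011 in DESeq2). Tfcp2l1 and Esrrb thus had the lowest p values of the 10 genes in embryos.

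Among the core factors in embryos, Pou5f1 measured 699.8 and 716 CPM with DMSO and 458 and 547 CPM with SGC0946. The groups were apart, with a log2 fold change of −0.49 (SE 0.12, adjusted p = 0.289 in edgeR, 0.012 in DESeq2). Nanog measured 32.3 and 33.4 CPM with DMSO and 14.6 and 30.3 CPM with SGC0946. The difference rested on inhibitor pool 1, since pool 2 lay close to the DMSO pools. Its log2 fold change of −0.55 (SE 0.32) was −1.17 without pool 2 and −0.11 without pool 1. Sox2 was low, at 2.21 and 2.60 CPM with DMSO and 1.91 and 2.62 CPM with SGC0946, from 50 to 86 counts per pool. The groups overlapped, and the 95% interval of its log2 fold change, from −1.84 to 1.67, leaves no direction.

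**Figure D2:**
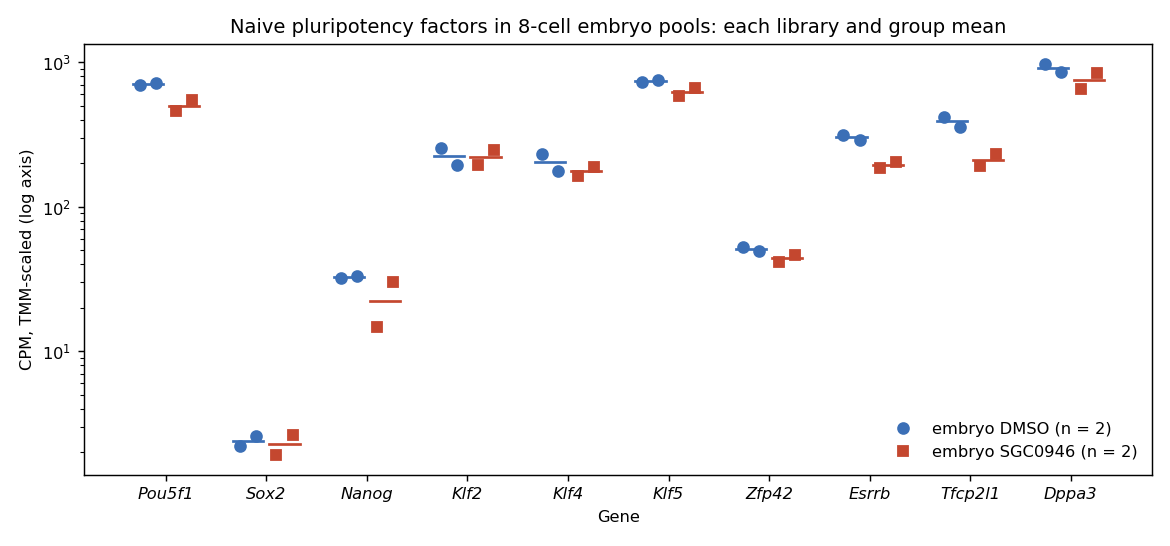
Level of each naive factor in the 2 DMSO (blue circles) and 2 SGC0946 (red squares) pools of 8-cell embryos, in TMM-scaled CPM on a log axis, with a line at each group mean. Tfcp2l1, Esrrb and Pou5f1 have both inhibitor pools below both DMSO pools by more than the gap between pools, whereas Nanog is low in 1 inhibitor pool and Sox2 is low in all 4.

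Of the remaining genes, Klf5 measured 726 and 755 CPM with DMSO and 582 and 666 CPM with SGC0946. Its groups were apart, with a log2 fold change of −0.25 (SE 0.11, adjusted p = 0.613). Dppa3 measured 981 and 859 CPM with DMSO and 653 and 848 CPM with SGC0946, where inhibitor pool 2 came close to the lower DMSO pool. Its log2 fold change was −0.29 (SE 0.13, adjusted p = 0.588). Zfp42 measured 52.4 and 49.6 CPM with DMSO and 41.6 and 46.4 CPM with SGC0946, a narrow separation, with a log2 fold change of −0.21 (SE 0.21). Klf2 overlapped between groups, at 254 and 195 CPM with DMSO and 195 and 247 CPM with SGC0946. Klf4 overlapped too, at 231 and 178 CPM with DMSO and 163 and 189 CPM with SGC0946. The 95% interval of the log2 fold change was −0.37 to 0.32 for Klf2 and −0.55 to 0.12 for Klf4. In pooled embryos, fewer cells of a type and less RNA per cell cannot be told apart.

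The knockout in mESCs and the inhibitor in embryos share no samples, so their log2 fold changes were compared by a test of the difference (limma-voom in each table, 12362 genes). Of all genes, 5.85% differed at an adjusted p under 0.05, and of the 10 naive factors Tfcp2l1 and Esrrb did. Tfcp2l1 was 0.46 in mESCs and −0.88 in embryos, a difference of 1.34 (SE 0.14, adjusted p = 2.0e-08). Esrrb was −0.07 and −0.63, a difference of 0.56 (SE 0.14, adjusted p = 0.0083). The call on Esrrb was lost without any 1 of the 4 embryo pools, with adjusted p values from 0.0529 to 0.228, and that on Tfcp2l1 was lost without SGC0946 pool 2 (difference 1.48, adjusted p = 0.0514). For the other 8 genes the adjusted p was 0.140 or more. For Nanog the difference was −0.43 (SE 0.29), which leaves room for an equal change. Genotype, strain, agent, cell type, duration, library kit and quantification all differ between the tables, and their parts cannot be told apart.

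**Figure D3:**
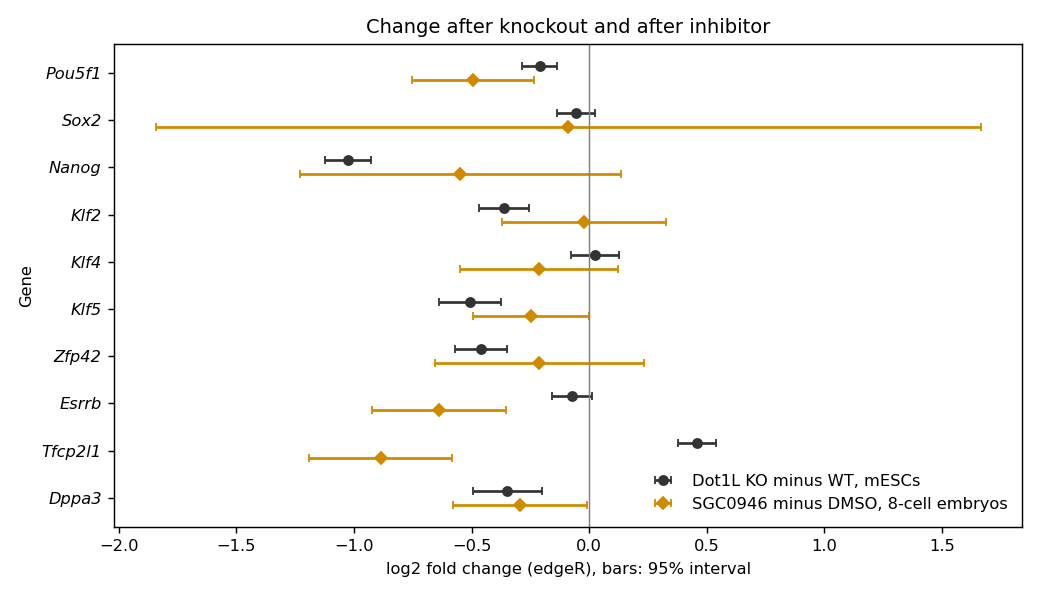
Log2 fold change of each naive factor in Dot1L KO mESCs relative to WT (black circles) and in SGC0946-treated 8-cell embryos relative to DMSO (orange diamonds), from edgeR with 95% intervals. Tfcp2l1 lies at 0.46 in mESCs and −0.89 in embryos, and the interval of Sox2 in embryos is the widest.

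The levels in untreated material are set side by side without a test, because the tables were scaled separately, come from different strains and kits, and were quantified in different ways (estimated counts from kallisto in mESCs, whole read counts from STAR and HTSeq in embryos, per the submitters' processing notes). Dppa3 was 23.6 ± 1.39 CPM (SD, n = 3) in WT mESCs and 920.3 ± 86.2 CPM (SD, n = 2) in DMSO embryos. Sox2 went the other way, at 402 ± 7.12 CPM in mESCs and 2.41 ± 0.28 CPM in embryos. Nanog was 496 ± 3.04 and 32.8 ± 0.74 CPM, and Zfp42 was 413 ± 0.66 and 51.0 ± 2.02 CPM. Klf5 was 339 ± 9.52 and 741 ± 20.3 CPM. Pou5f1, Klf2, Klf4, Esrrb and Tfcp2l1 were closer, for instance 386 ± 5.74 and 389.7 ± 43.3 CPM for Tfcp2l1. CPM are not divided by transcript length, so levels are not compared between genes.

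In WT mESCs, peaks of H3K79me2 lay over 9 of the 10 genes in both lists, against 44.4% of 18544 genes, and peaks of H3K79me3 over 8, against 11.2%. Both marks are more frequent over highly expressed genes. Of 5 equal groups of genes ordered by WT expression, the highest holds all of the naive factors but Dppa3, and in it H3K79me2 marked 94.3% and H3K79me3 35.8%. All 9 naive factors in that group had H3K79me2, which is near the share for the group, while 8 of the 9 had H3K79me3. These 9 lie in its upper part, at percentiles 93.3 to 99.1 of WT level among all genes tested. The H3K79me3 share rises with expression, from 8.95% in group 4 of 5, so 35.8% may understate the share at their level. The share at their own level was not computed. Tfcp2l1 had H3K79me3 in the list of WT replicate 1 alone, as 2 peaks over 796 bases. That list held 19800 peaks and the list of replicate 2 held 7338. Dppa3 had neither mark. It lies in expression group 4 of 5, where H3K79me2 marked 78.4% of genes. Its nearest H3K79me2 peak was 16596 bases away in replicate 1, over Gdf3, and 15851 bases away in replicate 2. Peak enrichments and positions are the authors' own values, 1 list per library, and no test was made on 2 lists.

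Of the core factors, Pou5f1 and Nanog were marked from close to their starts and Sox2 from further inside the gene. Pou5f1 (chromosome 17, 35506032 to 35510777) had the strongest H3K79me2 peak of the 10, with a fold enrichment of 13.7 and 12.4 in the 2 lists. Of the H3K79me2-marked genes in its expression group, 97.0% had a lower mean enrichment. That share was 22.3% for Sox2, 28.6% for Tfcp2l1 and 65.0 to 83.0% for the other marked naive factors. The H3K79me2 peaks of Pou5f1 began 941 and 555 bases before the start. In both lists they covered all 300 bases of the promoter window printed above. They also overlapped the neighbouring noncoding gene Gm32362, which ends 295 bases from Pou5f1, so their upstream reach belongs to both. Its H3K79me3 peaks instead began 1 and 7 bases after the start, with an enrichment of 6.83 and 8.55. Nanog (chromosome 6, 122707489 to 122714633) had H3K79me2 peaks from 203 and 20 bases after the start, at 9.31-fold and 9.06-fold, over 49.6 and 52.9% of the gene. Its H3K79me3 peaks covered 34.7 and 31.1%. The joined SOX and OCT element of Nanog lay outside the peaks in both lists, since they began after the start. Sox2 (chromosome 3, 34649995 to 34652461) spans 2467 bases and had H3K79me2 from 616 and 836 bases after the start, at 4.01-fold and 7.06-fold. Its H3K79me3 peaks began 388 and 1002 bases after the start. The strongest, at 7.31-fold and 6.98-fold, began at 984 and 1002 bases. Sox2 lies inside the long noncoding gene Sox2ot, so a peak there belongs to both.

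**Figure D4:**
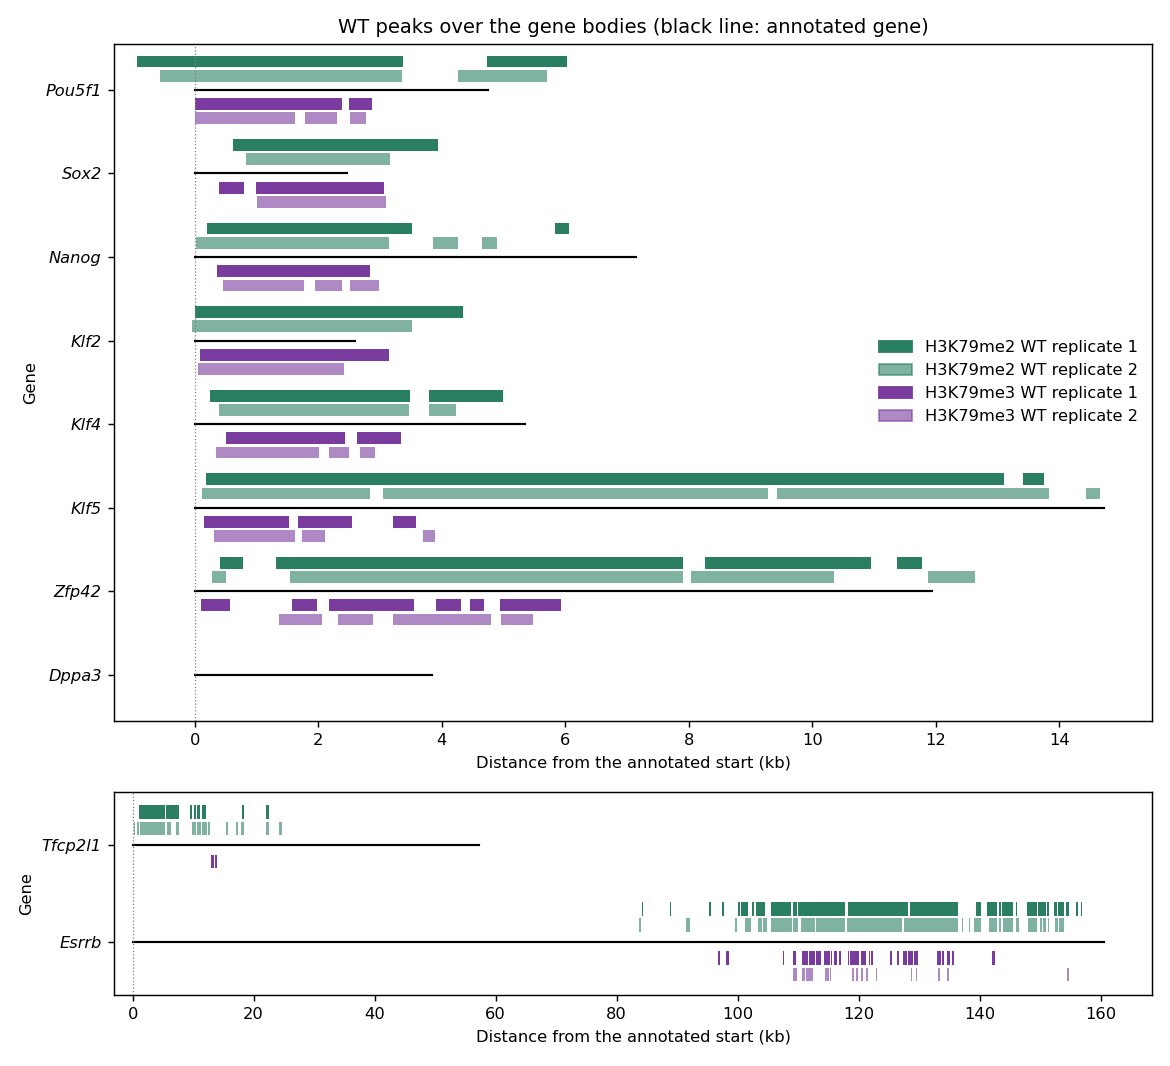
WT peaks of H3K79me2 (green) and H3K79me3 (purple) over each naive factor, as distance from the annotated start in kb, with replicate 1 in full and replicate 2 in pale colour and the gene as a black line. H3K79me2 peaks begin near the start in Pou5f1, Nanog and Klf2, and 616 and 836 bases after it in Sox2. Esrrb carries no peak in its first 83 kb, and Dppa3 has none. For Klf5 and Dppa3, whose strand is not in the tables used here, distance runs from the lower coordinate.

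Among the Krüppel-like factors, Klf2 (chromosome 8, 72319062 to 72321654) was covered almost whole by both marks, 99.8 and 100% of the gene by H3K79me2 and 96.8 and 91.5% by H3K79me3. Its strongest peaks were 10.1-fold and 7.44-fold for H3K79me2 and 10.9-fold and 7.0-fold for H3K79me3. Klf5 (chromosome 14, 99298691 to 99313412) showed the 2 marks at unequal width. H3K79me2 covered 90.1 and 92.3% of it, while H3K79me3 covered 17.8 and 12.8%, toward its lower coordinate. Klf4 (chromosome 4, 55527137 to 55532475) had H3K79me2 over 83.3 and 65.7% and H3K79me3 over 49.4 and 42.3%. Its strongest H3K79me2 peaks were 9.50-fold and 8.06-fold.

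Esrrb (chromosome 12, 86361117 to 86521628) spans 160512 bases and was marked in its distal part. Its 26 and 25 H3K79me2 peaks began 84171 and 83652 bases after the first annotated start, and the strongest, at 11.3-fold and 8.06-fold, began at 118185 and 118114 bases. Neither of its 2 annotated promoter windows, of which the second start lies at position 86421644, held a peak of either mark in either list. H3K79me2 covered 27.9 and 26.3% of the gene, and H3K79me3 9.14 and 3.94%. Tfcp2l1 (chromosome 1, 118627923 to 118685168) had 8 and 14 H3K79me2 peaks over 15.9 and 18.2% of the gene. The strongest, at 5.87-fold and 5.97-fold, began 1127 and 1153 bases after the start. Zfp42 (chromosome 8, 43295067 to 43307009) had H3K79me2 over 84.3 and 75.4% and H3K79me3 over 32.5 and 28.3%. Its strongest H3K79me2 peak was 10.6-fold in replicate 1 and 5.45-fold in replicate 2.

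**Figure D5:**
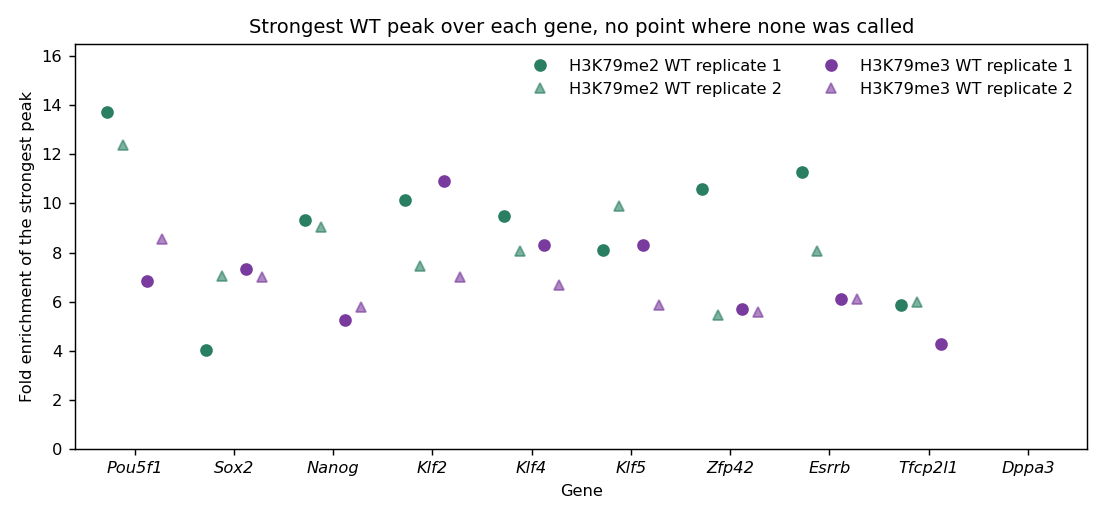
Fold enrichment, as the authors' peak caller gave it, of the strongest WT peak of H3K79me2 (green) and H3K79me3 (purple) over each naive factor, for replicate 1 (circles) and replicate 2 (triangles). Pou5f1 has the highest H3K79me2 values, 13.7 and 12.4, Tfcp2l1 has 1 H3K79me3 point, and Dppa3 has none.

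The marked genes thus had RNA changes in KO from −1.02 (Nanog) to 0.46 (Tfcp2l1) on the log2 scale, and the unmarked Dppa3 had −0.35. Nanog, Dppa3 and Gdf3 are neighbours on chromosome 6. Gdf3, which encodes a TGF-beta family ligand and lies 16337 bases from Dppa3, had H3K79me2 in both lists. It measured 63.3, 64.2 and 66.2 CPM in WT mESCs and 23.5 and 28.0 CPM in KO. Both KO libraries were far below WT, and the log2 fold change was −1.33 (SE 0.07, adjusted p = 8.4e-09). In embryos it measured 12.7 and 11.1 CPM with DMSO and 2.36 and 6.33 CPM with SGC0946. Slc2a3, a glucose transporter gene 13176 bases from Nanog with both marks, went the other way in mESCs, with a log2 fold change of 0.35 (adjusted p = 2.1e-05). Tcf19, 1953 bases from Pou5f1 and without either mark in both lists, rose with a log2 fold change of 0.44 (adjusted p = 0.0018).

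Other genes of the pluripotency network moved in KO mESCs as well. Of 18 such genes, 16 were called, 13 lower and 3 higher, with a median log2 fold change of −0.34, against 43.9% of all genes called, 21.6% lower and 22.3% higher, and a median of 0.00078. The largest falls were those of Fbxo15 (−1.34), an F-box gene driven by Oct4 and Sox2, of Prdm14 (−1.02), a repressor of differentiation genes, and of Tcl1 (−0.97), a cofactor of Akt. Gbx2 (0.43), Tdgf1 (0.32), which encodes the Nodal coreceptor Cripto, and Utf1 (0.27) rose. In embryos none of 17 tested was called and 6 had an unadjusted p under 0.05, all lower, against 4.05% of all genes lower, with Tdgf1 at −0.97 and Fbxo15 at −0.41. Nr0b1 was at 0 counts in all 4 embryo pools.

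Genes of later epiblast states did not rise as a group in KO mESCs. Of 12 genes, 9 were called, 7 lower and 2 higher, with a median log2 fold change of −0.33, beside the same 21.6% lower and 22.3% higher of all genes. Tcf7l1 (−0.92), a repressor of the naive network, Zic2 (−0.91) and Fgf5 (−0.66) fell, and the DNA methyltransferase gene Dnmt3a (0.59) and Lef1 (0.43) rose. Among relatives of the naive factors in their families, 13 of 26 tested were called, 6 higher and 7 lower, a share near the 43.9% of all genes. Klf17 (1.86), Sox11 (0.80) and Sox15 (0.55) rose, and Klf8 (−1.08), Yy2 (−0.88) and Sox21 (−0.72) fell. Some of these genes were low. Mean levels in WT and KO were 0.71 and 2.55 CPM for Klf17 and 3.47 and 2.11 CPM for Sox21. For Fgf5 they were 2.93 and 1.84 CPM. Klf8 is on chromosome X, and so is Yy2.

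Markers of other cell types moved with the genotype, and their counts of risers are to be read against the 22.3% of all genes called higher. Of 8 trophectoderm genes 6 rose, among them Hand1 (1.25), Cdx2 (1.14) and Eomes (0.82), and Gata3 fell (−1.11). Mean levels were low, at 0.83 CPM in WT and 1.99 CPM in KO for Hand1 and 0.40 and 0.87 CPM for Cdx2. Elf5 (−0.13) was not called. The trophectoderm genes summed to 58.0 to 59.7 CPM in WT and 83.5 to 85.8 CPM in KO. All sums of marker genes given here are on raw library totals. Relative to TMM scaling, these raise values in KO and SGC0946 libraries and lower them in WT and DMSO libraries. Of 7 primitive endoderm genes tested 4 rose, among them Gata6 (2.50), Sox17 (1.63) and Dab2 (1.44), and Hnf4a fell (−1.27). Gata6 had a mean of 0.67 CPM in WT and 3.83 CPM in KO, and Sox17 of 0.30 and 0.95 CPM, also low. Gata4 (−0.13) and Sox7 (−0.19) were not called. The primitive endoderm genes summed to 21.8 to 24.0 CPM in WT and 36.3 to 39.8 CPM in KO. Of 9 fibroblast genes tested 5 rose, among them Acta2 (1.10), Pdgfrb (0.74) and Col1a1 (0.62). Col1a2 (0.29), Col3a1 (−0.14), Dcn (−0.12) and Twist2 (−0.06) were not called, and Lum was not tested. The fibroblast genes summed to 170 to 216 CPM in WT and 251 to 309 CPM in KO. The part of other cells in the lower levels of the naive factors was not tested. In embryos none of these markers was called, and neither was any gene tested (0%). At an unadjusted p under 0.05 in edgeR, 1 of 7 trophectoderm genes tested (Tead4, −0.38) and 1 of 3 fibroblast genes tested (Pdgfrb) were lower. Of all genes, 4.05% were lower at that threshold. None of 4 primitive endoderm genes tested passed it. Cumulus cell genes summed to 0.825 to 1.197 CPM with DMSO and 0.882 to 0.893 CPM with SGC0946, with Ptx3 and Inhba at 0 in all pools. Fibroblast genes summed to 2.76 to 9.73 CPM with DMSO and 0.962 to 2.74 CPM with SGC0946, with 4 of 10 at 0 in all pools. The higher DMSO sum rests mostly on Pdgfrb in 1 pool. That gene ran from 0 to 225 counts per pool, with 4.14 ± 5.86 CPM (SD, n = 2, TMM-scaled) in the DMSO pools.

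The genes most like Nanog and Tfcp2l1 were found over all 9 RNA libraries, by the root mean square distance of log2 CPM centred within each table, among 6405 genes with at least 10 CPM in both. For Nanog they were Klf8, Tfeb, Hsd17b14, Dmtn and Enox1, at distances from 0.121 to 0.166. For Tfcp2l1 they were Tdgf1, Anxa11, Mtg1, Prkcz and Mt2, at distances from 0.0658 to 0.106. Tdgf1, the nearest, had a log2 fold change of 0.32 in KO mESCs and −0.97 in SGC0946 embryos, beside 0.46 and −0.89 for Tfcp2l1. The likeness of these values follows from the choice by distance over the same libraries and is no separate evidence.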

How the data were processed

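The 10 genes, the gene lists and the tests were chosen with earlier results of these data known. The mESC table holds estimated counts (expected counts) deposited by the authors. It was made with kallisto, per the submitters' processing notes, which for all mESC RNA libraries but WT replicate 1 also name STAR and HTSeq. The embryo table holds whole read counts deposited by the authors, from STAR and HTSeq per the same notes. Versions and strand settings are not given in the sources used here, so overlapping genes on opposite strands are uncertain. The deposited peak lists, from Bowtie2 and MACS2 on mm10 per the submitters' processing notes, give the authors' score, fold enrichment (a ratio), −log10 p and −log10 q per peak, per library, with a smallest −log10 q of 1.30. Their read depth is unknown, and input libraries were not used here.

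Estimated counts were rounded. Rows without a symbol held at most 0.0163% of mESC counts. Each table was fitted in edgeR 4.0.16 (R 4.3.3) by its quasi-likelihood test after filterByExpr and TMM scaling. Genes were called at an adjusted p under 0.05 (Benjamini-Hochberg over all genes tested). CPM are TMM-scaled unless raw totals are named. Differences between tables came from limma 3.58.1 (voom). DESeq2 was version 1.42.0. A gene was marked where peaks of both WT lists overlapped its RefSeq GRCm38.p6 body by at least 1 bp. Besides the 10 genes and Dot1l, the text names at most 3 called genes per list and direction (in embryos the 2 with the lowest p). It also names neighbours within 100 kb and the 5 genes most like Nanog and Tfcp2l1. Markers of other cell types that were not called or not tested in mESCs are named as well. Code was tested on simulated data. Replicate libraries differed by more than sampling noise, at a chi-square over its degrees of freedom from 2.43 to 5.58 (mESCs) and of 28.5 and 38.6 (embryos). Peaks and plots used Python 3.11.15, pandas 2.3.3 and matplotlib 3.10.9.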

Additional observations from a re-analysis of the deposited data

Results flagged for a closer look

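The log2 fold change of Tfcp2l1 differed between the KO in mESCs and the inhibitor in embryos by 1.34 (limma-voom, adjusted p = 2.0e-08), and every library moved in the direction of its group, higher in KO mESCs and lower in SGC0946 embryos. That of Esrrb differed by 0.56 (adjusted p = 0.0083), with lower levels in both inhibitor pools and a change in KO mESCs that was not called and whose groups overlapped on raw library totals. Both were picked out because the test of the difference itself passed its threshold, and neither call held over all leave-one-out fits. No group had 4 or more libraries, so single libraries were not tested as outliers.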

How the results depend on the processing

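The number of the 10 genes called in KO mESCs was 7 under each of the planned scalings, filters and tools, 8 on raw library totals and 7 to 8 when single libraries were left out, with 6940 to 8434 genes called in all. Upper-quartile scaling raised the share of higher calls from 50.8 to 63.5% and turned Sox2 to 0.012. Klf4 ranged from −0.046 to 0.092 when single libraries were left out, and turned without KO replicate 2. In embryos, where edgeR called 0 genes, DESeq2 called 126 genes (3 of the 10), limma-voom 55 (3), no filter 111 (3) and a minimum of 10 counts in every library 23 (2). Leaving out single pools gave 4 to 365 genes and 0 to 4 of the 10. With a replicate block, embryos gave 171 genes (3 of the 10: Tfcp2l1, Esrrb and Pou5f1) and mESCs 8160 (7). The labels do not say that numbers pair samples. Deviations of same-numbered libraries correlated at 0.132 in embryos and at 0.084 and −0.010 in mESCs. Deviations within a group of 2 libraries mirror each other, so the 2 embryo pairs give 1 value and not 2. Without single pools, embryo estimates ranged from −0.33 to 0.12 for Sox2, turning without DMSO replicate 2 or SGC0946 replicate 1, and from −0.20 to 0.18 for Klf2, turning without DMSO replicate 1 or SGC0946 replicate 1. Differences between tables were called for 92 to 889 genes and 0 to 3 of the 10 when single libraries were left out. They ranged from −0.18 to 0.27 for Sox2 (turning without KO replicate 2, DMSO replicate 2 or SGC0946 replicate 1), from −0.91 to 0.14 for Nanog (without SGC0946 replicate 2) and from −0.24 to 0.14 for Dppa3 (without DMSO or SGC0946 replicate 2, and 0.0054 under upper-quartile scaling). The causes were not tested. Peak counts of 9 and 8 genes held under all alternatives tried, except 9 for H3K79me3 in the list of WT replicate 1 alone. Where a KO or embryo library is left out, the other one of its group is assumed to vary like the rest. Scaling on raw library totals, added after seeing the data, turned Sox2 (0.053) and Esrrb (0.034) in mESCs and Klf2 (0.064) in embryos. It gave CPM of 0.962 to 0.974 times the TMM-scaled values in WT and DMSO libraries. In KO and SGC0946 libraries it gave 1.01 to 1.06 times those values. Sox2 in embryos rests on 50 to 86 counts per pool.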
